A study of Arabidopsis thaliana with 12 samples.

Results

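Loss of the PXY family and loss of ER with ERL2 were treated as the factors of a 2 × 2 design, and the interaction of the factors was measured for each gene in Arabidopsis thaliana. All 12 libraries of the study entered it, 3 from each of 4 genotypes in the Col-0 background: wild type, er erl2 (alleles er-105 and erl2-1), pxf (pxy-3, pxl1-1 and pxl2-1), and the quintuple mutant pxf er erl2, which by its label carries the alleles of both lines. Each library came from hypocotyls taken with the upper 5 mm of the root of plants grown for 3 weeks in long days. The interaction term of a gene is the log2 change caused by loss of ER and ERL2 where the PXY family is lost (pxf er erl2 against pxf), minus the same change where the PXY family is intact (er erl2 against wild type). These component contrasts share no library. Of 32833 loci in the files, 19236 had enough counts to be tested, and 1818 of them had a term with an adjusted p under 0.05.

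PXY is a receptor kinase of the vascular cambium, the cell layer that divides to give xylem on its inner side and phloem on its outer side. It binds the peptide TDIF, which is made in the phloem by CLE41 and CLE44, and it promotes cambial division, partly through the transcription factor WOX4, and orients the division plane; PXL1 and PXL2 are its closest relatives. ER and ERL2 belong to the ERECTA family of receptor kinases, which bind EPFL peptides and are known for their roles in organ growth, stomatal patterning and vascular development. Genetic interaction between the families has been studied in radial growth of stems and hypocotyls. Where effects of separate losses multiply, log2 changes add and the interaction term is 0, whereas effects that add as transcript amounts give a term of 0 on the scale of CPM, each gene's share of the library's counts scaled to a common total. A departure can therefore depend on the scale, and both were tested.

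The sampled tissue held more than cambium. The defining xylem markers (CESA4, CESA7, CESA8, IRX9 and XCP1) were at 48.2 to 562 CPM in the 12 libraries and the phloem markers (APL, SUC2 and SEOR1) at 13.0 to 393 CPM. Summed levels of the root hair, stomatal lineage, and shoot apex and flower markers were at most 1.46, 5.62 and 4.93 CPM in any library, and SEP3 was at 0 in all. The Casparian strip genes CASP1 to CASP5 were each under 1 CPM. The wider list of suberin and Casparian strip genes summed to 333 to 715 CPM per library, so low CASP levels do not show that endodermis and periderm were absent. In such bulk samples fewer cells of a type and less RNA per cell cannot be told apart.

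Total counts ran from 10507590 to 14716123 per library. Replicates correlated at 0.977 to 0.990 in log2 CPM and libraries of different genotypes at 0.926 to 0.972, and no pair of libraries held identical counts. Within these limits 4 libraries stood apart on summed marker levels. Replicate 3 of er erl2 had 7408 CPM of xylem wall genes, against 9959 and 10259 CPM in its fellow replicates. Replicate 3 of pxf er erl2 had 10656 CPM of photosynthesis genes against 14866 and 16530 CPM, replicate 3 of wild type 3510 CPM against 4798 and 4650 CPM, and replicate 3 of pxf 13632 CPM against 10987 and 10409 CPM. Calls that rest on them are given with and without them, and summed levels of lists with them only. The er erl2 alleles are the same by label in both lines that carry them, but 44 called genes with counts elsewhere had none in any er erl2 library. Matching counts for the other genotypes and for all tested genes are not given here, so the 44 do not show er erl2 to be exceptional. A difference outside the mutated loci that is present in only a single genotype would enter the interaction term in full and cannot be told apart from an interaction. An equal difference shared by both lines with er erl2, or by both lines with pxf, would cancel.

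Calls were 9.45% of tested genes, of which 895 had a positive term (4.65%) and 923 a negative one (4.80%). The median size of a called term was 0.81, and 721 called genes departed at least 2-fold from the product of the single effects. When each library was left out in turn, 940 genes were called in all 12 fits as well as in the whole one (4.89% of tested genes). In the component contrasts, 3607 genes (18.8%) changed on loss of ER and ERL2 with the PXY family intact and 2016 (10.5%) with it lost. Without replicate 1 or 3 of pxf, 1119 and 1183 genes were called in the interaction, 517 and 556 of them negative, and 1206 and 1298 in pxf er erl2 against pxf. Negative calls were also 566 without replicate 3 of er erl2, and pxf er erl2 against pxf gave 1192 without replicate 1 of pxf er erl2.

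**Figure D1:**
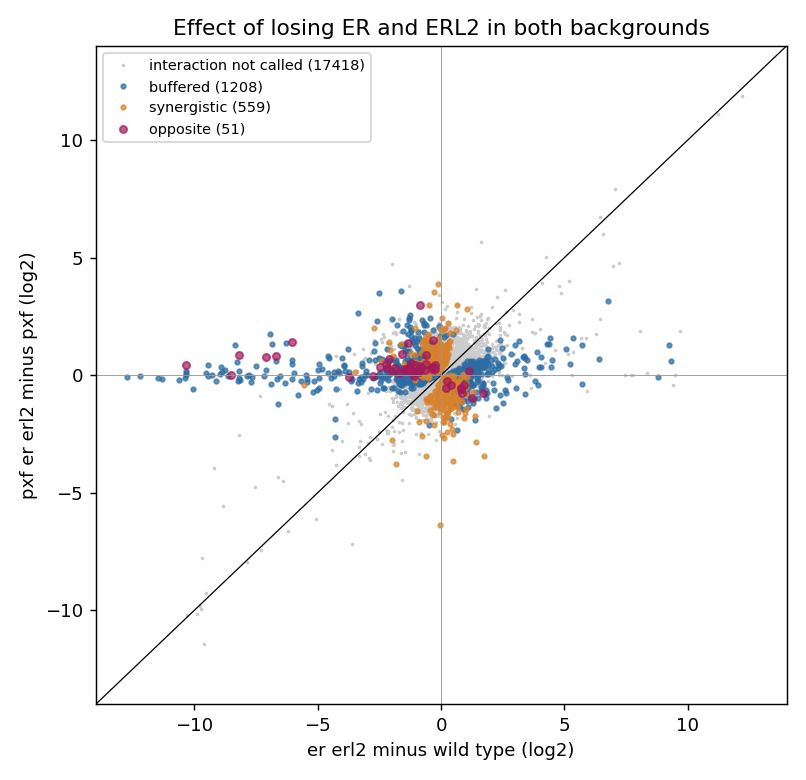
Each point is a tested gene. The x axis is the log2 change in er erl2 against wild type and the y axis the log2 change in pxf er erl2 against pxf; genes on the diagonal have an interaction term of 0, and colours mark the 1208 buffered, 559 synergistic and 51 opposite genes among the 1818 called. Called genes lie away from the diagonal. Many lie along the x axis, with a change in er erl2 against wild type and little change in pxf er erl2 against pxf.

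Called genes were sorted by comparing the observed change in pxf er erl2 against wild type with the sum of the log2 changes in er erl2 and in pxf. A gene is called buffered where the observed change was smaller in size than that sum, synergistic where it was larger, and opposite where both passed the test with opposite signs. By this rule 1208 genes were buffered (66.4% of called), 559 synergistic (30.7%) and 51 opposite (2.81%). The sum of single changes passed its own test for 3616 genes (18.8%). It enters the term with a minus sign, so replicate error in the sum moves genes into the buffered class, and the classes themselves were given no test. Of the classes, the opposite one had the largest terms, with a median size of 1.59 against 0.83 for buffered and 0.71 for synergistic genes. All 51 opposite genes were called whichever library was left out, as were 628 buffered and 261 synergistic genes. The rule itself favours the larger terms and steadier calls of the opposite class. Only its genes had to pass further tests, and the sizes of their opposed changes add up in the term. Class counts moved by more than 1.5 times in a few such fits: buffered genes were 749 and 775 and synergistic genes 326 and 362 without replicate 1 or 3 of pxf, synergistic genes were 369 without replicate 1 of er erl2, and the rule gave 31 and 30 opposite genes without replicate 1 or 3 of wild type.

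Among buffered genes, the change on loss of ER and ERL2 passed the test for 874 only where the PXY family was intact, and for 130 only where it was lost. A change that did not pass may still be present. Among synergistic genes the counts were 99 and 342. The class rule partly sets these splits. The change in er erl2 enters the sum of single changes, and the change in pxf er erl2 against pxf enters the observed change. Seen against wild type, where 18.8%, 21% and 36.3% of all genes differed in er erl2, pxf and the quintuple mutant, 562 called genes (30.9%) differed in er erl2 alone, 297 (16.3%) in pxf er erl2 alone and 82 (4.51%) in pxf alone, while 127 (6.99%) differed in none of the mutants by these tests. The 562 genes of er erl2 alone include 32 with no count in that line. Of the genes in er erl2 alone and in pxf er erl2 alone, 348 of the former had a positive term and 214 a negative one, against 120 and 177 of the latter.

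**Figure D2:**
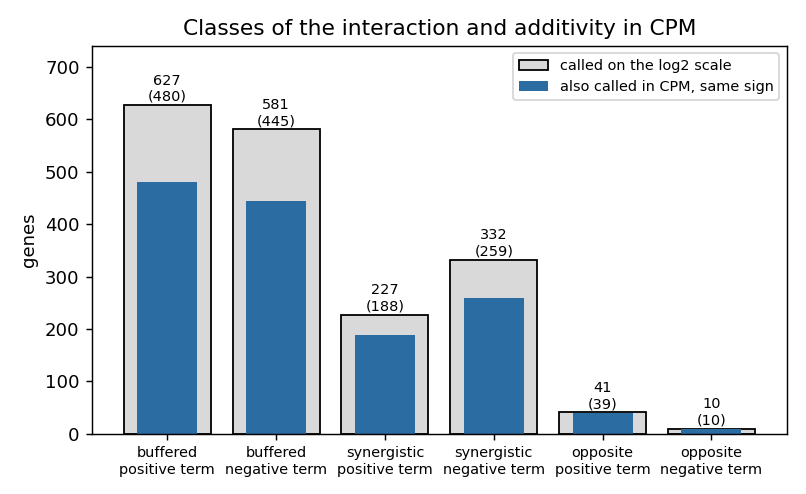
Grey bars give the number of genes called on the log2 scale by class and by sign of the interaction term, and blue bars those also called in CPM with the same sign (in brackets). Of buffered genes 627 had a positive term and 581 a negative one, synergistic genes 227 and 332, and opposite genes 41 and 10.

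At the mutated loci, transcripts of PXY (AT5G61480) stood at 251, 248 and 248 CPM in wild type, 348, 367 and 333 in er erl2, 20.7, 21.97 and 25.96 in pxf, and 83.8, 75.6 and 72.6 in the quintuple mutant. The libraries of the 4 genotypes did not overlap, and er erl2 was above wild type and pxf er erl2 above pxf. Its interaction term was 1.27 ± 0.11 (SE, adjusted p = 1.48e-05). On the CPM scale the departure had the other sign: the mean of 77.3 ± 5.76 CPM in pxf er erl2 lay above the product of single effects (32.1 CPM) and below their sum (123 CPM), with a CPM-scale departure of -45.8 ± 11.2 CPM (SE, limma adjusted p = 0.0248). PXY was one of 2 genes called on both scales with opposite signs, but its CPM-scale call was lost in 3 of 12 fits without a library, those without replicate 1 or 3 of pxf or replicate 2 of pxf er erl2 (adjusted p = 0.0596, 0.0666 and 0.0512).

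ER (AT2G26330) transcripts were 39.6, 42.7 and 32.6 CPM in wild type, 8.66, 8.54 and 11.5 in er erl2, 62.1, 59.6 and 65.8 in pxf, and 11.3, 8.97 and 7.695 in the quintuple mutant. Both lines with er-105 were below the others in every library, and pxf was above wild type in every library. The term was -0.74 ± 0.21 (SE, adjusted p = 0.0433), called in 2 of the 12 fits without a library, with an adjusted p of up to 0.129 in the others; on the CPM scale the adjusted p was 0.00106. PXL1 (AT1G08590), PXL2 (AT4G28650) and ERL2 (AT5G07180) were near the detection limit, with at most 14 reads in any library, and PXL2 alone was tested, with a term of 0.036 (adjusted p = 0.989). ERL1, the third ERECTA family member, was at 1.81, 2.28 and 2.02 CPM in er erl2, and had 1 read in wild type, 3 in pxf and 9 in pxf er erl2 over the 3 libraries of each. It was called on the CPM scale (limma adjusted p = 0.00182) and not on the log2 scale (edgeR adjusted p = 0.241). ERL1 passed the filter on counts through er erl2 alone, the genotype where it was high, so the CPM call is no independent evidence of a departure.

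Among other members of the TDIF pathway, the ligand genes CLE41, CLE42 and CLE44 were not called on either scale. WOX4 (AT1G46480), the cambial target of PXY signalling, stood at 64.2, 58.6 and 63.9 CPM in wild type, 74.6, 77.7 and 81.02 in er erl2, 63.4, 68.8 and 61.1 in pxf, and 59.8, 56.4 and 62.1 in the quintuple mutant. Every er erl2 library was above every other library, while the other genotypes overlapped. The term was -0.44 ± 0.094 (SE, adjusted p = 0.0121), with loss of ER and ERL2 raising WOX4 by 0.32 log2 units with the PXY family intact (adjusted p = 0.00487) and changing it by -0.12 with it lost (adjusted p = 0.298). WOX4 and PXY were the called genes among 13 tested of the pathway (15.4%, against 9.45% of all genes), and of the 11 tested ERECTA pathway genes only ER was called on log2. PXY and ER are themselves mutated in these lines, and the 15.4% counts PXY. Outside the mutated loci, WOX4 was the only gene of these lists called on log2 by edgeR with TMM factors, and ERL1 was called in CPM. DESeq2, and edgeR with DESeq2 size factors, each gave 2 positive calls and 1 negative call in the TDIF list.

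The buffered genes with the strongest calls and a positive term were ones that nearly vanished in er erl2 alone. AT1G73490 was at 62.5, 62.1 and 61.05 CPM in wild type, 1.24, 1.63 and 1.404 in er erl2, 63.1, 56.8 and 55.7 in pxf, and 53.8, 47.5 and 55.05 in the quintuple mutant. DAR4 (AT5G17890), an immune receptor-like gene with a LIM domain, was at 51.2, 47.3 and 49.2 CPM in wild type, 0.0825, 0 and 0 in er erl2, 42.8, 44.8 and 50.3 in pxf, and 52.02, 49.4 and 45.8 in the quintuple mutant. AT5G56380 was at 26.1, 33.2 and 26.8 CPM in wild type, 0, 0 and 0 in er erl2, 25.4, 30.2 and 26.3 in pxf, and 25.9, 23.9 and 25.8 in the quintuple mutant. In each, er erl2 lay far below the other genotypes, which differed little from one another. AT1G73490 had a term of 5.26 ± 0.14 (SE, adjusted p = 8.35e-11). DAR4 had 1 read in er erl2 in all and AT5G56380 none, so fitted terms of these genes depend on the fit and give no fold. All lie outside the chromosome stretches described further on. That does not set them apart, since genes named from those stretches also vanish in er erl2 alone. On chromosome 5, which holds DAR4 and AT5G56380, 11.7% of tested genes outside the stretches were called, against 6.39% to 8.48% on other chromosomes. Whether the lines differ at these loci was not tested.

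Buffered genes with a negative term showed several patterns. BCAT4 (AT3G19710), an aminotransferase of methionine chain elongation in aliphatic glucosinolate synthesis, was at 3.41, 5.56 and 5.35 CPM in wild type, 73.8, 74.99 and 66.5 in er erl2, 64.8, 54.3 and 61.8 in pxf, and 124, 128 and 102 in the quintuple mutant. Both single losses raised it far above wild type, and the combined loss raised it further. Its term was -2.93 ± 0.19 (SE, adjusted p = 1.28e-06), since the product of single effects would be 906 CPM, but the sum of single gains came to 127 CPM, near the observed 118 ± 13.9 CPM (SD, 3 libraries; CPM-scale adjusted p = 0.5004). AT5G53810 was instead high in er erl2 only, at 12.2, 13.6 and 11.5 CPM in wild type, 78.3, 69.4 and 89.8 in er erl2, 11.2, 12.8 and 9.52 in pxf, and 11.4, 11.3 and 8.96 in the quintuple mutant. AT5G16990 was highest in er erl2 too, at 2.75, 4.104 and 3.48 CPM in wild type, 40.6, 38.1 and 37.5 in er erl2, 6.199, 6.198 and 6.38 in pxf, and 8.66, 11.2 and 9.39 in the quintuple mutant, with no overlap between er erl2 and any other genotype. The terms of AT5G53810 and AT5G16990 were -2.75 and -2.84.

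Synergistic genes with a positive term included neighbours on chromosome 5. XIP1 (AT5G49660), a receptor kinase of vascular tissue that binds CEP peptides, stood at 42.7, 49.2 and 48.1 CPM in wild type, 37.5, 40.3 and 40.9 in er erl2, 61.4, 61.98 and 59.3 in pxf, and 135, 125 and 126 in the quintuple mutant. AAP6 (AT5G49630), an amino acid permease of vascular tissue, stood at 94.1, 115 and 117 CPM in wild type, 71.05, 62.4 and 63.6 in er erl2, 217, 224 and 181 in pxf, and 297, 322 and 326 in the quintuple mutant. In both genes er erl2 was below wild type, pxf above it, and pxf er erl2 above all other libraries. The terms were 1.32 ± 0.092 (SE, adjusted p = 1.51e-06) and 1.33 ± 0.14 (SE, adjusted p = 6.58e-05). Loss of ER and ERL2 changed AAP6 by -0.73 log2 units in wild type and by 0.60 in pxf (adjusted p = 2.65e-04 and 0.00172). AT1G64370 behaved likewise, at 78.3, 68.8 and 85.8 CPM in wild type, 51.2, 54.98 and 58.2 in er erl2, 109.9, 95.5 and 95.9 in pxf, and 297, 332 and 235 in the quintuple mutant, with a term of 2.02.

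Promoters of genes that carry these patterns are shown for reference. They are the 250 bases before the annotated start in assembly TAIR10.1 of RefSeq, written 5′ to 3′ along the gene with motif matches in capitals: the I-box GATAAG, a light-related motif, in PSAD-1 (AT4G02770), a photosynthesis gene described further on, and in AAP6, and the clock-related AATATCT on the reverse strand in BCAT4. XIP1 held none of the motifs searched. Positions are chr4:1230165-1230414 for PSAD-1, chr3:6849583-6849832 for BCAT4, chr5:20164730-20164979 for XIP1 and chr5:20146691-20146940 for AAP6, all on the minus strand.
PSAD-1: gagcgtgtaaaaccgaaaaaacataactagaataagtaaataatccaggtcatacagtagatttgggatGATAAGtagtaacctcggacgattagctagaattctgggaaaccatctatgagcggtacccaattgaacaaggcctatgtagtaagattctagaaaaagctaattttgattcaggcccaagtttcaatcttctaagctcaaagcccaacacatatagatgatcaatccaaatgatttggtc
BCAT4: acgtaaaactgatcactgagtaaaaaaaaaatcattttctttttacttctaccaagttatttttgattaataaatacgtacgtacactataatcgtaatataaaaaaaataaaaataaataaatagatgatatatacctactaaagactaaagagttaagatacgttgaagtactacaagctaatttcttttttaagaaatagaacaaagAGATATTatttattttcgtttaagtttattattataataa
XIP1: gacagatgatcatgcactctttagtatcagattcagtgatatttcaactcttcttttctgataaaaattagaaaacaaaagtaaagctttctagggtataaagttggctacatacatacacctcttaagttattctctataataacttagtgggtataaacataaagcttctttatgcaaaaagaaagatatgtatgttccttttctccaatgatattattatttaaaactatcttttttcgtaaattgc
AAP6: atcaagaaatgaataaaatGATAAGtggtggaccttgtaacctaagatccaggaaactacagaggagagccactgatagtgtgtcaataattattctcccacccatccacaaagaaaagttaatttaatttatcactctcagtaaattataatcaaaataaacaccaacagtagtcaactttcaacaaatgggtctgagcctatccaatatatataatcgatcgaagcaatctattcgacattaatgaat

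Searched on both strands, the motifs were about as frequent in the buffered and synergistic classes as in all 19204 promoters read. The I-box was in 12.9% of buffered, 11.8% of synergistic and 12.2% of all promoters, AATATCT in 10.8%, 11.8% and 9.87%, and the G-box CACGTG in 6.62%, 7.87% and 7.32%. The other motifs, the W-box TTGACC, the GCC box GCCGCC and the auxin response element TGTCTC, were in 12.1%, 2.03% and 10.5% of all promoters. Of 34 photosynthesis promoters, 10 held an I-box (29.4%). A match is a description of these letters and no evidence of binding.

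Synergistic genes with a negative term included WAK1 (AT1G21250), FLR1 (AT3G12145), AT1G10980 and STM (AT1G62360). WAK1, a receptor-like kinase bound to the cell wall, was at 114, 103 and 99.4 CPM in wild type, 125, 108 and 114 in er erl2, 67.05, 74.9 and 65.8 in pxf, and 13.6, 17.6 and 20.4 in the quintuple mutant. Levels in er erl2 overlapped wild type, pxf was lower, and pxf er erl2 lower still in every library, with a term of -2.14 ± 0.16 (SE, adjusted p = 4.59e-06). FLR1, a leucine-rich repeat protein gene, was at 359 ± 5.704 CPM in wild type, 386 ± 10.5 in er erl2, 232 ± 4.96 in pxf, and 129 ± 7.96 in the quintuple mutant (mean ± SD), with a term of -0.95. AT1G10980 was at 41.4 ± 2.73 CPM in wild type, 39.7 ± 2.404 in er erl2, 34.2 ± 1.14 in pxf, and 11.4 ± 1.01 in the quintuple mutant, with a term of -1.53. STM, a KNOX transcription factor of shoot meristems that is also active in cambium, fell in pxf and fell further in pxf er erl2. It was at 142, 142 and 118 CPM in wild type, 146, 159 and 159 in er erl2, 47.8, 46.7 and 56.5 in pxf, and 26.9, 30.6 and 21.8 in the quintuple mutant. Its term was -1.13 ± 0.16 (SE, adjusted p = 0.00107); loss of ER and ERL2 changed STM by 0.21 log2 units in wild type (adjusted p = 0.219) and by -0.93 in pxf (adjusted p = 4.27e-04).

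In the opposite class the change in pxf er erl2 had the other sign from the sum of the single changes, which need not hold for each single loss. Of the 41 such genes with a positive term, all called higher in pxf er erl2, 30 were lower in er erl2 and not called in pxf, 9 were lower in er erl2 and higher in pxf, 1 was lower in both, and 1 was lower in pxf and not called in er erl2. SBT4.12 (AT5G59090), a subtilisin-like protease gene, was at 19.1, 15.7 and 18.2 CPM in wild type, 8.83, 8.54 and 12.2 in er erl2, 7.48, 5.37 and 5.53 in pxf, and 57.6, 45.7 and 40.5 in the quintuple mutant. Each single loss lowered it and the combined loss raised it above every other library, with a term of 3.81 ± 0.25 (SE, adjusted p = 1.28e-06). The sum of its single losses in CPM is below 0 (-1.65 CPM), a level no transcript can have. FLS2 (AT5G63580), here the flavonol synthase-like gene AT5G63580 and not the flagellin receptor, was at 67.4, 70.6 and 71.6 CPM in wild type, 16.01, 16.4 and 12.1 in er erl2, 62.6, 79.1 and 61.5 in pxf, and 88.2, 87.5 and 105 in the quintuple mutant, so er erl2 alone was low. RPL27 (AT5G40950), a plastid ribosomal protein gene, was at 34.7 ± 2.28 CPM in wild type, 8.73 ± 1.49 in er erl2, 49.4 ± 5.85 in pxf, and 55.2 ± 4.52 in the quintuple mutant, and was thus lower than wild type in er erl2 and higher in pxf. The terms of FLS2 and RPL27 were 2.70 and 2.15.

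Of the 10 opposite genes with a negative term, all called lower in pxf er erl2, 8 were higher in er erl2 and not called in pxf, 1 was higher in er erl2 and lower in pxf, and 1 was called in neither. LHY (AT1G01060), a morning gene of the circadian clock, was at 33.5, 36.1 and 36.8 CPM in wild type, 78.4, 71.5 and 80.8 in er erl2, 24.1, 22.6 and 22.7 in pxf, and 27.3, 24.96 and 25.7 in the quintuple mutant. All er erl2 libraries were above wild type and all pxf and pxf er erl2 libraries below it, with a term of -0.95 ± 0.10 (SE, adjusted p = 7.02e-05). CPD (AT5G05690), a cytochrome P450 of brassinosteroid synthesis, was at 22.9, 23.7 and 16.3 CPM in wild type, 36.97, 38.1 and 37.9 in er erl2, 22.6, 22.8 and 22.97 in pxf, and 14.04, 13.4 and 13.4 in the quintuple mutant, so that pxf er erl2 lay below all others, with a term of -1.59 ± 0.16 (SE, adjusted p = 4.72e-05). AT1G52750 had a similar profile, at 22.7 ± 3.78 CPM in wild type, 40.1 ± 1.92 in er erl2, 23.9 ± 1.07 in pxf, and 15.7 ± 0.543 in the quintuple mutant, and a term of -1.42. LAX2 (AT2G21050), an auxin influx carrier, was at 128, 109.9 and 83.05 CPM in wild type, 192, 178 and 189 in er erl2, 125, 96.6 and 115 in pxf, and 80.6, 76.7 and 75.8 in the quintuple mutant with a term of -1.33 ± 0.19 (SE, adjusted p = 0.00125).

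**Figure D3:**
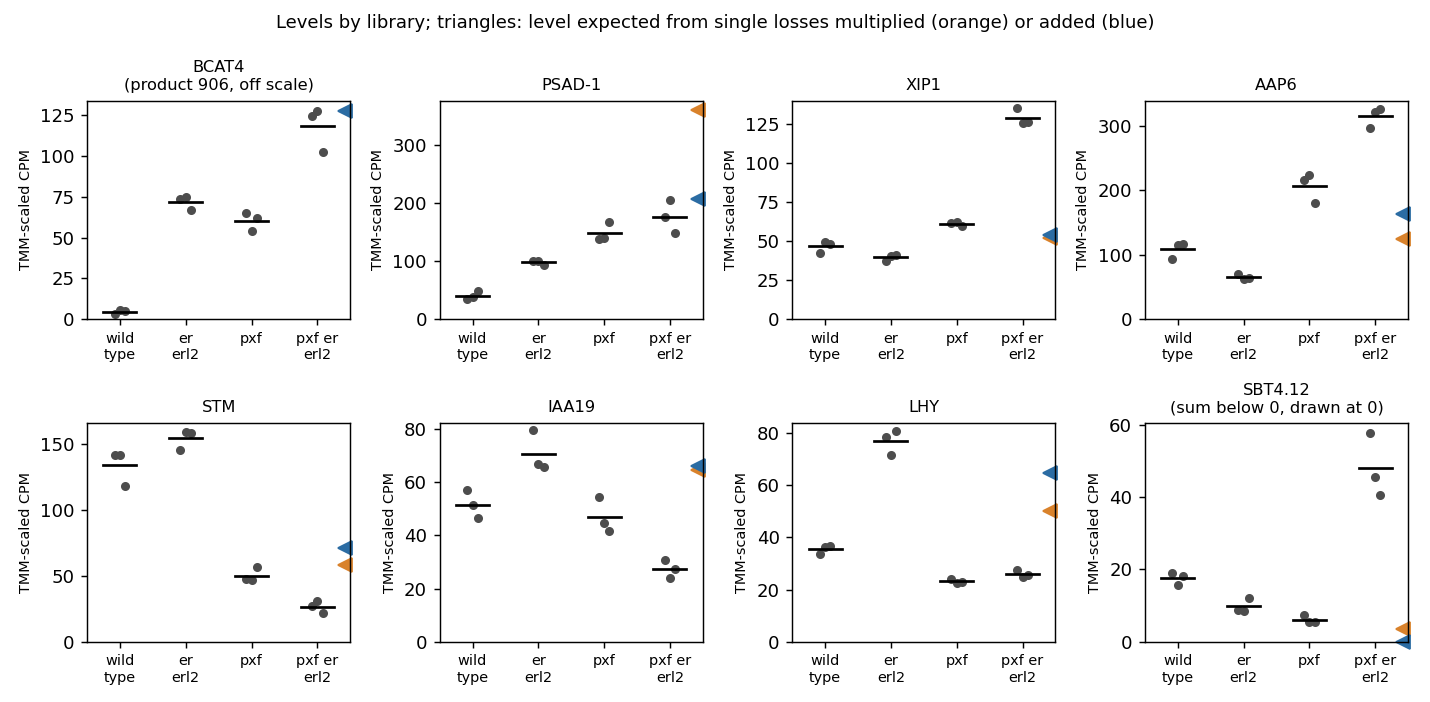
TMM-scaled CPM of 8 genes, with a point for each of the 3 libraries of a genotype and a line at the mean; triangles at the right edge mark the level expected in pxf er erl2 from the product (orange) and the sum (blue) of single effects. BCAT4 and PSAD-1 lie near the sum and far under the product in pxf er erl2, XIP1, AAP6 and SBT4.12 lie above both, and STM, IAA19 and LHY lie below both.

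Part of the calls depended on the scale. On the CPM scale 1662 genes were called (8.64%), 827 with a positive departure (4.3%) and 835 with a negative one (4.34%). Of the 1818 genes called on log2, 1421 (78.2%) were also called in CPM with the same sign, 395 were not called in CPM, and 2 were called with the other sign; 239 genes were called in CPM alone. Without replicate 1 or 3 of pxf the CPM calls were 1036 and 1090, and those shared by both scales 844 and 892. Of synergistic genes, 68.7% of the 275 whose single changes summed to a fall and 90.8% of the 284 whose changes summed to a rise were called in CPM, and the difference between these shares was not tested.

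Genes raised by both single losses show how the scales part. There were 789 of them, where 10.3% of all genes were raised in er erl2 and 13% in pxf. In pxf er erl2, 748 lay below the product of their single effects and 630 below the sum, and 730 lay closer to the sum than to the product. Over all 19236 tested genes these counts were 10300, 9956 and 9521. Negative terms were called for 220 on log2 and negative departures for 110 in CPM, positive ones for 0 and 13; 27.9% and 15.6% of the 789 were called at all. Both single losses were measured against the same wild-type libraries, and a chance low value there raises both changes and lowers the term, so the direction is partly set by the choice of genes. Lowered by both were 260 genes, where 8.44% of all genes were lowered in er erl2 and 7.97% in pxf. Of these 260, 91 were called positive and 4 negative on log2, and 110 and 0 in CPM. For 69 of them the sum lay below 0. They went the other way in pxf er erl2: 27 lay below the product, 10 below the sum, and 15 closer to the sum than to the product. Their direction too is partly set by the choice of genes.

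Genes called on log2 with no departure in CPM were led by BCAT4, by IMD1 (AT5G14200) and by XTH16 (AT3G23730). IMD1, an isopropylmalate dehydrogenase of the same chain elongation pathway, was at 16.3, 12.04 and 11.7 CPM in wild type, 101, 98.6 and 84.5 in er erl2, 94.05, 72.3 and 90.9 in pxf, and 164, 172 and 142 in the quintuple mutant; the product would be 608 CPM and the sum 167 CPM (log2 adjusted p = 7.52e-05, CPM adjusted p = 0.692). XTH16, a xyloglucan endotransglucosylase/hydrolase gene of wall remodelling, fell in each mutant, to 15.9, 19.2 and 21.6 CPM in pxf er erl2 from 88.5, 109.8 and 95.2 CPM in wild type, with a term of -1.05 and a CPM adjusted p of 0.527. Departures in CPM alone were given by AT1G19715 and AT2G25450. AT1G19715 was at 21.8 ± 0.739 CPM in wild type, 29.5 ± 3.99 in er erl2, 49.2 ± 1.55 in pxf, and 71.9 ± 3.13 in the quintuple mutant. AT2G25450 was at 23.6 ± 5.11 CPM in wild type, 47.4 ± 11.8 in er erl2, 79.6 ± 6.21 in pxf, and 148 ± 11.9 in the quintuple mutant. Both had CPM-scale departures above the sum (adjusted p = 0.0139 and 0.0141) and log2 terms of 0.12 and -0.12 that did not pass the test.

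Lists of genes by function were described next, by counts and medians beside those of all tested genes, whose median term was -0.031. Of the 21 lists, cambium regulators, photosynthesis, glucosinolate, and auxin and cytokinin genes had the highest shares of called members. Shares of the lists called on log2 are read against 9.45% of all genes, and counts called in CPM against 8.64%.

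**Figure D4:**
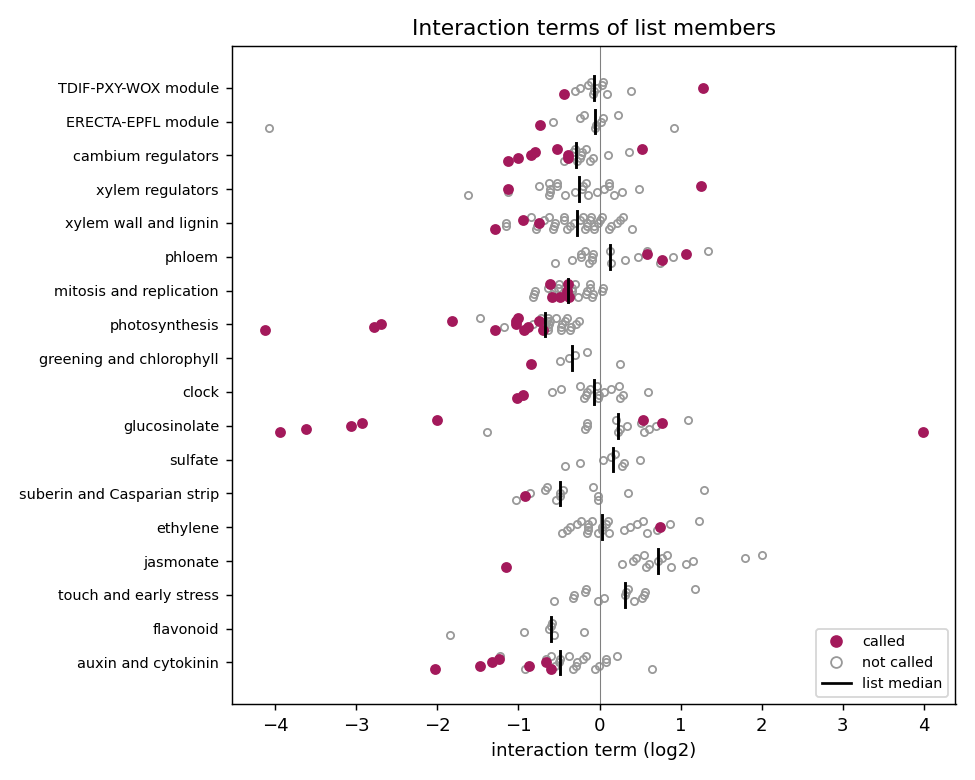
Interaction terms (log2) of the tested members of 18 gene lists, with a point for each gene, filled where the gene was called, and a line at the list's median. All 34 photosynthesis genes lie below 0, 17 of 20 cambium regulators and 27 of 29 mitosis and replication genes lie below 0, and 14 of 15 jasmonate genes lie above it, none of them called; the 1 called jasmonate gene lies below 0.

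Of 20 cambium regulators, 8 were called (40.0%), 7 with a negative term, and the median term was -0.29. Loss of ER and ERL2 raised 9 of them and lowered 0 with the PXY family intact (10.3% and 8.44% of all genes), and raised 0 and lowered 3 with it lost (5.07% and 5.41% of all genes). CNA (AT1G52150), a class III HD-ZIP transcription factor of vascular patterning, was at 309, 299 and 298 CPM in wild type, 364, 370.1 and 385 in er erl2, 245, 258 and 265 in pxf, and 235, 211 and 215 in the quintuple mutant. It was highest in er erl2 and lowest in pxf er erl2 without overlap, with a term of -0.52 ± 0.081 (SE, adjusted p = 0.00157). PHB (AT2G34710), of the same family, was at 135 ± 5.13 CPM in wild type, 172 ± 3.97 in er erl2, 132 ± 2.93 in pxf, and 129 ± 8.52 in the quintuple mutant, above the rest in er erl2 only (term -0.39, adjusted p = 0.0107). The remaining called members were chosen for naming after their values were seen: REV, also of that family, LBD11, ANT and PLT5 had terms of -0.39, -0.85, -0.79 and -1.01, and the D-type cyclin CYCD3;2 had 0.52. ANT, PLT5 and CYCD3;2 were not called in every fit without a library, and without replicate 1 of pxf 5 members of the list were called. The summed level of the list was 1763 ± 23.2, 2114 ± 62.1, 1669 ± 23.0 and 1600 ± 25.9 CPM in wild type, er erl2, pxf and the quintuple mutant (SD, 3 libraries each), against an expected 2020 CPM by the sum and 2002 CPM by the product.

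Mitosis and replication genes also had mostly negative terms. They were below 0 for 27 of 29, with a median of -0.39, and 6 were called (20.7%), all negative. RNR1 (AT2G21790), the large subunit of ribonucleotide reductase, was at 74.1 ± 0.9496 CPM in wild type, 85.6 ± 3.23 in er erl2, 81.5 ± 2.76 in pxf, and 72.7 ± 4.46 in the quintuple mutant. PCNA1 (AT1G07370), the sliding clamp of replication, was at 31.6 ± 4.03 CPM in wild type, 41.6 ± 2.17 in er erl2, 35.96 ± 2.02 in pxf, and 31.02 ± 2.82 in the quintuple mutant. MCM4 (AT2G16440), a subunit of the replicative helicase, was at 37.7 ± 2.49 CPM in wild type, 45.4 ± 2.701 in er erl2, 42.4 ± 0.723 in pxf, and 36.5 ± 3.53 in the quintuple mutant. In each the er erl2 mean was highest and pxf er erl2 was near wild type. Terms were -0.37, -0.61 and -0.49, with adjusted p = 0.0137, 0.0158 and 0.0187. The other called members, named after their values were seen, were the helicase subunits MCM5, MCM6 and MCM7, with terms of -0.40, -0.59 and -0.39. Without replicate 3 of er erl2, MCM4 was not called (adjusted p = 0.0551) and 2 of the list were, and 3 without replicate 1 of pxf er erl2; the other fits without a library gave 4 to 6.

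Among 36 xylem wall and lignin genes 3 were called (8.33%), all negative, with a median of -0.28. This list turned on replicate 3 of er erl2, the library low in xylem wall transcripts: without it 14 genes were called, all negative, and without any other library 1 to 4. LAC17 (AT5G60020), a laccase of lignin polymerisation, was at 20.3, 20.4 and 22.8 CPM in wild type, 53.9, 48.1 and 41.8 in er erl2, 14.2, 15.4 and 15.4 in pxf, and 17.6, 19.5 and 23.8 in the quintuple mutant, highest in er erl2 without overlap, with a term of -0.75 ± 0.17 (SE, adjusted p = 0.0161). GAUT12 (AT5G54690), a glycosyltransferase-like protein of xylan synthesis, was at 71.00, 60.9 and 63.9 CPM in wild type, 134, 149 and 87.7 in er erl2, 44.5, 46.8 and 44.2 in pxf, and 47.03, 45.5 and 41.2 in the quintuple mutant. FAH1 (AT4G36220), the ferulate 5-hydroxylase of syringyl lignin, was at 11.6, 11.6 and 9.17 CPM in wild type, 40.02, 50.9 and 22.8 in er erl2, 18.03, 18.7 and 21.1 in pxf, and 25.7, 28.96 and 28.8 in the quintuple mutant. In both, replicate 3 of er erl2 was well below its fellows. Terms were -0.94 ± 0.22 (SE, adjusted p = 0.0237) and -1.29 ± 0.33 (SE, adjusted p = 0.0364); without that library they were -1.11 (adjusted p = 0.000123) and -1.52 (adjusted p = 0.000316). The calls of GAUT12 and FAH1 were lost on leaving out any of 6 and 10 other libraries. In CPM 1 of the list was called.

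The 24 xylem regulators gave 2 calls (8.33%). MYB63 (AT1G79180), an activator of lignin genes, was at 16.6 ± 3.07 CPM in wild type, 8.79 ± 1.52 in er erl2, 14.7 ± 0.656 in pxf, and 18.6 ± 3.88 in the quintuple mutant (mean ± SD), lowest in er erl2 without overlap, with a term of 1.25 ± 0.24 (SE, adjusted p = 0.00675). VND5 (AT1G62700), a NAC factor of vessel formation, was at 7.01, 8.66 and 6.71 CPM in wild type, 11.1, 9.76 and 12.8 in er erl2, 10.9, 9.57 and 9.91 in pxf, and 8.19, 7.01 and 5.58 in the quintuple mutant, with a term of -1.13 ± 0.23 (SE, adjusted p = 0.00891). Their terms had opposite signs. Without replicate 3 of er erl2 the calls were 1 positive and 3 negative.

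Of 20 phloem genes 3 were called (15.0%), all positive and all synergistic, while over the list 11 terms were above 0 and 9 below, with a median of 0.135. Without any 1 of the wild-type libraries there was also 1 negative call, and DESeq2 called 5 positive and 1 negative. HA3 (AT5G57350), a plasma membrane proton pump of companion cells, was at 86.9, 99.05 and 82.9 CPM in wild type, 85.00, 84.8 and 85.6 in er erl2, 148, 151 and 149 in pxf, and 245, 255 and 225 in the quintuple mutant. Loss of ER and ERL2 changed it by -0.074 log2 units in wild type (adjusted p = 0.493) and 0.69 in pxf (adjusted p = 3.95e-05), a term of 0.77 ± 0.096 (SE, adjusted p = 2.89e-04). PP2-A1 (AT4G19840), a phloem lectin, was at 176, 195 and 175 CPM in wild type, 159, 158 and 153 in er erl2, 273, 295 and 260.5 in pxf, and 376, 343 and 351 in the quintuple mutant. FTIP1 (AT5G06850), which aids export of the flowering signal FT into sieve elements, was at 6.54, 7.66 and 7.05 CPM in wild type, 5.69, 5.78 and 5.09 in er erl2, 10.2, 11.4 and 9.37 in pxf, and 17.2, 17.9 and 15.6 in the quintuple mutant. In all 3 genes every pxf er erl2 library was above every pxf library, and er erl2 lay within or below the range of wild type. Terms of PP2-A1 and FTIP1 were 0.59 and 1.07. The sieve element genes SEOR1 and SEOa, chosen after their values were seen, did not pass the test, with terms of -0.17 and -0.34 (adjusted p = 0.603 and 0.429). SEOR1 was at 124 ± 6.19 CPM in wild type, 172 ± 17.6 in er erl2, 282 ± 27.9 in pxf, and 348 ± 68.02 in the quintuple mutant. XIP1 and AAP6 above are not on the list. The summed level was 1122, 1246, 1696 and 2070 ± 190 CPM (SD of pxf er erl2) against 1821 CPM by the sum and 1884 CPM by the product, of which the latter was within that SD. The spread of the other genotypes, which enters both expected levels, is left out of that SD. In CPM 6 of the 20 were called (8.64% of all genes were), 5 of them with a positive departure.

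In the photosynthesis list all 34 tested genes had a term below 0, with a median of -0.67, and 12 were called (35.3%), all buffered. Loss of ER and ERL2 raised 29 of them with the PXY family intact and 2 with it lost (10.3% and 5.07% of all genes). PSAD-1, a photosystem I subunit whose promoter is shown above, was at 35.7, 38.03 and 48.4 CPM in wild type, 101, 101 and 94.4 in er erl2, 138, 140.4 and 167 in pxf, and 176, 205 and 148 in the quintuple mutant. Each mutant was above wild type without overlap, while pxf and pxf er erl2 overlapped, and the term was -1.03 ± 0.19 (SE, adjusted p = 0.00599). CAB3 (AT1G29910), a light-harvesting chlorophyll protein, was at 4.93, 4.92 and 2.29 CPM in wild type, 36.9, 39.6 and 51.4 in er erl2, 34.3, 28.03 and 50.4 in pxf, and 58.9, 72.2 and 52.6 in the quintuple mutant. RBCS3B (AT5G38410), a Rubisco small subunit, was at 27.7, 27.2 and 15.4 CPM in wild type, 84.8, 86.2 and 86.9 in er erl2, 131, 124 and 168 in pxf, and 153, 170.4 and 119 in the quintuple mutant. In both genes every mutant library was above every wild-type one. The pxf er erl2 libraries were above those of pxf for CAB3 and overlapped them for RBCS3B. Their terms were -2.70 and -1.82. These are members of families of near-identical genes among which reads may be split, and RBCS3B lies in a stretch described further on. The other 9 called members had terms from -0.70 (PSAL) to -4.13 (RBCS1B).

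On the CPM scale limma called none of the 34 photosynthesis genes (4 had an unadjusted p under 0.05), while on log2 edgeR called 12 and DESeq2 17. The summed level of the list was 4319 ± 705, 7634 ± 413, 11676 ± 1718 and 14018 ± 3028 CPM in wild type, er erl2, pxf and the quintuple mutant (SD, 3 libraries each). The sum of single gains came to 14991 CPM and their product to 20636 CPM. The level in pxf er erl2 thus lay within its SD of the sum and more than that below the product. That SD leaves out the spread of the other genotypes, which enters both expected levels, so the comparison does not decide between sum and product. Without replicate 3 of pxf er erl2, of wild type, of er erl2 or of pxf, the log2 test called 11, 10, 10 and 9 genes, with 33 of 34 terms below 0 in the last, and over all 12 such fits 9 to 15, all negative. These genes are also the markers of green tissue, and the part of differing amounts of green tissue in the libraries was not tested. GUN5 (AT5G13630), a magnesium chelatase subunit of chlorophyll synthesis, was at 88.1 ± 12.1 CPM in wild type, 206 ± 6.72 in er erl2, 249 ± 45.2 in pxf, and 324 ± 66.3 in the quintuple mutant, with a term of -0.85 that was called in 4 of the 12 fits without a library.

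Glucosinolate genes, 21 tested, gave 8 calls (38.1%): 5 negative and 3 positive. The negative ones belong to the aliphatic branch, which starts from methionine. Beside BCAT4, they are BAT5 (AT4G12030), FMO GS-OX1 (AT1G65860), and the cytochromes P450 CYP79F1 and CYP83A1 of the core pathway, the last pair named after their values were seen. BAT5, a plastid carrier of chain elongation, was at 2.46, 4.38 and 2.55 CPM in wild type, 17.3, 16.02 and 13.6 in er erl2, 27.4, 19.7 and 18.3 in pxf, and 26.3, 31.1 and 23.9 in the quintuple mutant. FMO GS-OX1, which oxygenates the side chain, was at 0.379, 0.547 and 0.255 CPM in wild type, 13.1, 15.8 and 11.6 in er erl2, 8.55, 5.79 and 8.37 in pxf, and 15.6, 21.5 and 12.4 in the quintuple mutant. Both were raised in all mutants without overlap with wild type. Terms were -2.01 ± 0.30 (SE, adjusted p = 0.00136) and -3.95 ± 0.44 (SE, adjusted p = 1.06e-04), with CPM adjusted p of 0.193 and 0.365. In CPM the list had 3 calls, all positive. The positive calls, also named after their values were seen, were MYB34, CYP79B3 and MAM3, with terms of 0.54, 0.77 and 3.99. MYB34 is an activator of the indolic branch, and CYP79B3 acts on tryptophan there. MAM3 is a methylthioalkylmalate synthase of the aliphatic branch, so called genes of that branch had terms of both signs. MAM3 was at 1.71, 2.46 and 2.63 CPM in wild type, 2.31, 1.46 and 2.46 in er erl2, 0.926, 0.482 and 0.615 in pxf, and 8.66, 4.68 and 16.4 in the quintuple mutant, and lies in a dense stretch.

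Auxin and cytokinin genes gave 7 calls of 26 (26.9%), all negative, with a median of -0.49. IAA19 (AT3G15540), an auxin-induced repressor of auxin response, was at 57.1, 51.4 and 46.5 CPM in wild type, 79.5, 66.9 and 65.9 in er erl2, 54.6, 44.6 and 41.9 in pxf, and 30.8, 23.9 and 27.3 in the quintuple mutant, a rise in er erl2 and a fall in pxf er erl2, with a term of -1.24 ± 0.17 (SE, adjusted p = 8.60e-04). Loss of ER and ERL2 raised IAA19 and LAX2, described above, in wild type (adjusted p = 0.0207 and 0.00152) and lowered both in pxf (adjusted p = 0.00184 and 0.0275). Further calls were IAA1, IAA5, ARR7 and ARR16, named after their values were seen, the last pair being type-A response regulators of cytokinin. Without replicate 3 of er erl2, or replicate 1 or 3 of pxf, 4 genes were called, and 5 to 7 in the other fits without a library.

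Remaining lists had few calls on log2. Of 18 clock genes, LHY and PRR3 (AT5G60100), an evening-phased regulator, were called (11.1%); PRR3 held in 1 of 12 fits without a library (adjusted p = 0.0493). CCA1, the close partner of LHY, named after its values were seen, was at 14.03, 9.39 and 14.1 CPM in wild type, 45.1, 41.1 and 47.8 in er erl2, 9.69, 9.57 and 11.4 in pxf, and 26.1, 26.2 and 20.6 in the quintuple mutant, and was called in CPM (adjusted p = 0.00242) but not on log2 (adjusted p = 0.101). Of 25 ethylene genes 1 was called (4%). KCS20 (AT5G43760), of long-chain fatty acid elongation, was the 1 call of 14 suberin and Casparian strip genes (7.14%), and VSP1 (AT5G24780), a vegetative storage protein responsive to jasmonate, that of 15 jasmonate genes (6.67%); terms were -0.93 and -1.15, and both lie in dense stretches. Other jasmonate genes had terms above 0, with a list median of 0.73, but spread widely: pxf replicates summed to 2224 to 3553 CPM. Sulfate, touch and early stress, and flavonoid genes, 8, 15 and 7 tested, had no call on log2 by edgeR; 0, 2 and 1 had an unadjusted p under 0.05, and DESeq2 called 0, 0 and 1. The flavonoid list summed to 154 ± 43.0, 100.2 ± 38.2, 949 ± 232 and 366 ± 98.1 CPM in wild type, er erl2, pxf and the quintuple mutant. In CPM 3 of its 7 tested genes (CHI, DFR and LDOX, of pigment synthesis) were called, all with a negative departure, against 8.64% of all genes. The unadjusted limma p was under 0.05 for 6 of the 7.

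Called genes were not spread evenly over the chromosomes. On chromosome 5, 14.6% of 4492 tested genes were called, against 6.39% to 8.95% on the others, and 28 of the 41 opposite genes with a positive term were there. Genes with large terms, of at least 3 log2 units in size, were crowded in 5 stretches, 1 on chromosome 3 and 4 on chromosome 5, found by joining windows of 100 tested genes that held at least 5 such genes. By this rule the stretches hold many genes with large terms, and the shares that follow describe them and test nothing. The stretches held 1398 tested genes (7.27%), of which 339 were called (24.2%, against 8.29% outside) and 91 of the 160 genes with large terms. Among the genes named from the stretches, AT5G28350 was at 65.8, 68.04 and 72.01 CPM in wild type, 0, 0 and 0 in er erl2, 66.5, 65.98 and 68.3 in pxf, and 64.7, 59.7 and 64.4 in the quintuple mutant. AT3G43740 was at 49.6, 42.9 and 50.5 CPM in wild type, 0, 0 and 0 in er erl2, 43.96, 42.5 and 38.2 in pxf, and 40.2, 41.2 and 38.98 in the quintuple mutant. AT5G44572 was at 11.2, 13.3 and 15.1 CPM in wild type, 0, 0 and 0 in er erl2, 22.1, 34.9 and 27.96 in pxf, and 37.3, 41.1 and 36.3 in the quintuple mutant. These 3 genes were at 0 in er erl2 alone, which by label carries the same er-105 and erl2-1 alleles as pxf er erl2. In the stretch from AT3G26922 to AT3G44860, 77 of 81 called genes differed between er erl2 and wild type, and 10 between pxf er erl2 and pxf.

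**Figure D5:**
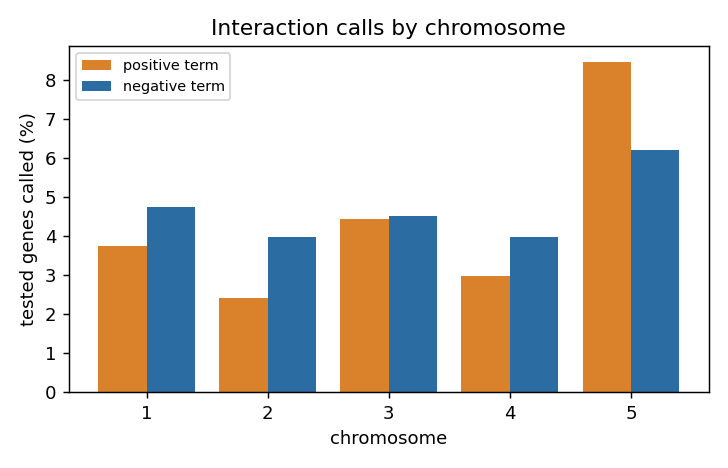
Bars give the share of tested genes called in the interaction on each of the 5 nuclear chromosomes (%), split by positive and negative term. Chromosome 5 has 8.44% positive and 6.19% negative calls, and no other chromosome exceeds 4.44% positive or 4.75% negative.

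With the dense stretches left out, a step added after the data were seen, 1479 genes were called, 656 positive and 823 negative, with 941 buffered, 504 synergistic and 34 opposite, and 1361 in CPM. Chromosome 5 outside them still had 11.7% of genes called. Of the stretches' 339 called genes 239 had a positive term. MCM6, RBCS1B and CESA4 lie in them as well. Which genes there carry a difference between the lines that is unrelated to the receptors was not tested.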

How the data were processed

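Poly-A RNA of 3 biological replicates of each of 4 genotypes was sequenced. Gene counts were deposited by the authors as raw whole numbers, 1 file per library. Per the submitters' processing notes, HISAT2 2.0.5, featureCounts 1.5.0-p3 and TAIR10 were used; strand setting, annotation and treatment of shared reads are not given in the sources used here, so counts of near-identical or overlapping genes are uncertain. Names and promoters come from RefSeq assembly TAIR10.1, matched by locus tag.

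Counts of all 12 libraries were fitted with edgeR 4.0.16 in R 4.3.3 (filterByExpr, TMM factors 0.986 to 1.01, robust quasi-likelihood test, 1 term per genotype), which left 19236 genes with 99.9% of counts and a biological coefficient of variation of 11.6%. The interaction and its component contrasts were tested with Benjamini-Hochberg adjustment over all tested genes, at 0.05. Additivity in CPM was tested with limma 3.58.1 on TMM-scaled CPM divided by each gene's mean (trend, robust). The scripts were tested on simulated counts. Alternatives were a replicate block, no filter, DESeq2 1.42.0, DESeq2 size factors, library totals, and leaving out each library. Replicate numbers did not pair libraries: deviations of same-numbered libraries correlated at -0.367 to 0.27.

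Genes were named by rule: the mutated loci; per class and sign, the 3 lowest adjusted p among genes called in every fit without a library, of at least 10 CPM and outside dense stretches; per list up to 3 called members; 3 genes called on log2 with a CPM-scale adjusted p over 0.5 and 2 with the reverse, of at least 50 CPM; and the 3 largest terms in dense stretches. The members and the 21 lists were chosen with earlier results of these data known; of 405 list entries, 8 did not match the name table and were left out, and some genes the rule selects are not reported here. Precision is set by 3 libraries per genotype, and p-values measure the spread between them.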

Additional observations from a re-analysis of the deposited data

Results flagged for a closer look

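For the genes here, the effect of losing ER and ERL2 differed between plants with and without the PXY family, by the interaction term of edgeR at adjusted p under 0.05. Each value is that term in log2 units; genes with 3 or fewer reads in a genotype are left out. No explanation was tested.

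Buffered genes with a positive term were PXY at 1.27, AT1G73490 at 5.26 and MYB63 at 1.25. Synergistic ones were XIP1 at 1.32, AT1G64370 at 2.02, AAP6 at 1.33, and the phloem genes HA3 at 0.77, PP2-A1 at 0.59 and FTIP1 at 1.07. Opposite ones were FLS2 at 2.70, SBT4.12 at 3.81 and RPL27 at 2.15.

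Among genes with a negative term, the buffered ones included the glucosinolate genes FMO GS-OX1 at -3.95, BCAT4 at -2.93 and BAT5 at -2.01. IMD1, of the same chain elongation pathway as BCAT4, was at -1.94. Photosynthesis genes were CAB3 at -2.70, RBCS3B at -1.82 and PSAD-1 at -1.03. Further buffered genes were AT5G16990 at -2.84, AT5G53810 at -2.75, GUN5 at -0.85, PRR3 at -1.02, FAH1 at -1.29, LAC17 at -0.75, VND5 at -1.13, KCS20 at -0.93 and VSP1 at -1.15. Smaller terms were those of the cambium and replication genes WOX4 at -0.44, PHB at -0.39, RNR1 at -0.37, PCNA1 at -0.61 and MCM4 at -0.49.

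Synergistic genes with a negative term were ER at -0.74, AT1G10980 at -1.53, WAK1 at -2.14, FLR1 at -0.95, STM at -1.13, CNA at -0.52, GAUT12 at -0.94, IAA19 at -1.24 and XTH16 at -1.05. Opposite ones were CPD at -1.59, LHY at -0.95, AT1G52750 at -1.42 and LAX2 at -1.33.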

How the results depend on the processing

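Leaving out 1 library at a time gave 1119 to 1747 interaction calls, 602 to 895 positive and 517 to 852 negative, against 1818, 895 and 923 with all 12. Buffered genes ranged from 749 to 1222, synergistic from 326 to 598 and opposite from 30 to 63. CPM-scale calls ranged from 1036 to 1802 and calls shared by both scales from 844 to 1388. The component contrasts ranged from 2578 to 4270 (er erl2 against wild type), 1192 to 2244 (pxf er erl2 against pxf), 2497 to 4729 (pxf against wild type), 5283 to 6693 (pxf er erl2 against er erl2), 5332 to 7465 (pxf er erl2 against wild type) and 2316 to 4315 (sum of single losses). The fewest interaction calls came without replicate 1 or 3 of pxf (1119 and 1183) and the most without replicate 2 of pxf (1747), while without replicate 3 of pxf er erl2 several counts rose, er erl2 against wild type to 4270 from 3607; the causes were not tested. The term of PXL2, never called, ranged from -0.350 to 0.844 and changed sign in 6 of these fits.

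A replicate block gave 1464 interaction calls, and 4 of 12 libraries correlated best with a library of their own number. No filter gave 1591 calls, DESeq2 size factors 1755, library totals 1839 and DESeq2 itself 2169, all within 1.5 times 1818. Classes drawn from the effect of ER and ERL2 loss in each background gave 113 opposite genes against 51, with 1390 of 1818 genes but only 21 of the 51 opposite ones in the same class; the cause was not tested. Low counts limit PXL1, PXL2, ERL2 and ERL1.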
